A study of Mus musculus with 18 samples.

Results

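Normal NK cells were compared with normal NKT cells by ATAC-seq, an assay in which the Tn5 transposase cuts and tags open chromatin. The members were chosen by their labels: 3 NK libraries and 3 NKT libraries, 6 of the 18 libraries in the series. NK libraries came from wild-type C57BL/6 mice and held spleen NK cells sorted as CD27- CD11b+, the mature splenic subset. NKT libraries came from wild-type C57BL/6 mice and held CD3+ cells of the liver that bound a tetramer of CD1d with alpha-galactosylceramide. The sample titles of the NKT libraries carry Sp, which goes against that liver label. The other 12 libraries, 3 of normal T cells and 9 of mPTCL (murine peripheral T-cell lymphoma), entered the fit for its estimate of spread and appear below only where their level bears on a result. Cell type, tissue and sort gate differ together between the groups and cannot be told apart. Each library was made from 10000 sorted cells. Whether replicates are separate animals is not stated in the labels. The p-values therefore reflect only how much libraries vary, which may be technical among the NK and NKT libraries. That spread was estimated over all 18 libraries, lymphomas included. Its common value for peaks, as a coefficient of variation, was 0.431 there and 0.215 in a fit of the 6 libraries alone. The low-count filter left 61220 peaks in the first fit and 26149 in the second. These values therefore cover different peaks and do not show what the other libraries add to the spread.

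NK cells are innate lymphocytes that recognise targets through germline-encoded activating and inhibitory receptors and kill with perforin and granzymes. The activating receptors signal through ITAM adaptors such as DAP12 and the Fc receptor gamma chain, and on to the kinase SYK and the phospholipase PLCG2. NKT cells are T cells with a semi-invariant T-cell receptor that sees lipids on CD1d, they signal through CD3 and LCK, ZAP70 and LAT, and PLZF (encoded by Zbtb16) is their lineage factor. NKT cells also carry NK receptors and make IFN-gamma and IL-4, so the groups share much of an effector programme, and an open peak shows access to a gene, not its expression.

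The depth and agreement of the libraries differed between the groups before any gene was compared. Total counts in peaks were 428211, 417107 and 596601 in NK libraries and 1433904, 8268896 and 9097014 in NKT libraries. Correlations of log2 CPM (counts scaled to library size) over all peaks were 0.450 to 0.483 among NK libraries, 0.900 to 0.970 among NKT libraries and 0.502 to 0.595 between the groups. NK libraries therefore resembled each other less than they resembled NKT libraries on that measure, and over peaks whose mean count reached 100 the medians were 0.609 among NK libraries, 0.891 among NKT libraries and 0.571 between the groups. After the NKT libraries were thinned to the NK depth they still correlated at 0.822 to 0.844 with each other. Thinning drew single counts and so matched totals, not independent fragments. It therefore cannot show how the groups would agree at an equal number of fragments. Between 80.5% and 84.0% of nonzero counts were even numbers in NK libraries, against 53.4% to 69.4% in NKT libraries, so a low count rests on fewer independent fragments than its size, and counting intervals and floors below, which cover counting error only, are too narrow. No pair of libraries matched within sampling noise. The lowest chi-square of any pair, divided by its degrees of freedom, was 2.91.

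Short sequences show what lies under the peaks at the best-known loci, since the promoters of Ncr1, an NK receptor gene, and of the Cd3 genes opened in opposite directions. Each is the 250 bases before a transcription start in RefSeq (GRCm38.p6, the mm10 build), and capitals mark matches to short motifs listed with the motif results. The Sh2d1b1 promoter was added after its values were seen.
Ncr1, chr7:4337465-4337714, plus strand: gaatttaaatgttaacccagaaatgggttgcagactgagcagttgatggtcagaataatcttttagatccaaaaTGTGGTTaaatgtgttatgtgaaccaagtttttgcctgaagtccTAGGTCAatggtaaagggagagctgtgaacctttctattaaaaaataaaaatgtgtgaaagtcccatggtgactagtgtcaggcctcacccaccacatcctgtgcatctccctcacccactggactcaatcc
Sh2d1b1, chr1:170277068-170277317, plus strand: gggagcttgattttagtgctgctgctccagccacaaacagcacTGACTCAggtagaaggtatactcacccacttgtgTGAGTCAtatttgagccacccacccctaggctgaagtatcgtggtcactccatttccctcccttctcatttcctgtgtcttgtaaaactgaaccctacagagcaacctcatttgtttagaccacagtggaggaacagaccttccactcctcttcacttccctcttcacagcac
Cd3e, chr9:45009612-45009861, minus strand: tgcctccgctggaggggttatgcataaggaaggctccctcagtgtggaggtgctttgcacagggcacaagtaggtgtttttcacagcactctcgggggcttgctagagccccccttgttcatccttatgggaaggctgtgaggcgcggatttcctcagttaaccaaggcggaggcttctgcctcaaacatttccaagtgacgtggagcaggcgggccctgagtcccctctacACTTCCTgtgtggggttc
Cd3d, chr9:44981536-44981785, plus strand: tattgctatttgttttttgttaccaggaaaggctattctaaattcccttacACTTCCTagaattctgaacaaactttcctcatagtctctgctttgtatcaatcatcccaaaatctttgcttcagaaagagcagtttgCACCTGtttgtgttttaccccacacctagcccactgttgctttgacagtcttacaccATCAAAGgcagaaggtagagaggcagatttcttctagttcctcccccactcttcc
The Ncr1 sequence holds a RUNX match 176 bases and a ROR match 132 bases before the start, and the Sh2d1b1 sequence holds AP-1 matches at 207 and 173 bases. The Cd3e sequence holds the ETS letters ACTTCCT at 18 bases, and the Cd3d sequence holds ACTTCCT at 199, an E-box at 112 and a TCF7/LEF1 match at 55 bases before the start.

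Across the peaks, more sites were lower in NK than higher. Of 61220 peaks tested, 4168 (6.81%) were higher in NK and 6328 (10.3%) were lower, 17.1% in all, by edgeR's quasi-likelihood test at an adjusted p below 0.05. With counts summed over the peaks of each gene, the balance was the other way: of 20326 genes, 1730 (8.51%) were higher in NK and 1276 (6.28%) were lower, 14.8% in all. At an unadjusted p below 0.05 there were 20315 peaks and 6285 genes. The 3 NK libraries did not overlap with the 3 NKT libraries at 34.6% of all peaks and 34.9% of all genes. Ranges that do not overlap, given below for single genes and peaks, stand beside those shares. The split by direction depends on the scaling, the depth and the set of libraries and peaks. With RLE size factors in place of TMM, 6817 peaks were higher and 2133 lower, the median log2 fold change of all peaks moved to 0.34 from -0.17, and 2069 genes were higher and 758 lower. With NKT libraries thinned to the NK depth, 1678 peaks were higher and 1246 lower, with the 6 libraries alone 2035 and 1740, and over the smaller deposited set of peaks 1283 and 1111. No peak and no gene called with TMM was called in the other direction with RLE factors. Without NKT replicate 2 the peak calls were 1543 higher and 3079 lower. Without NK replicate 3 they were 2495 higher and 2766 lower, without NK replicate 2 3168 higher and 4200 lower, without NKT replicate 1 2929 higher and 3170 lower, and without NKT replicate 3 2600 higher and 3813 lower. The gene calls were 1870 higher and 1829 lower without NK replicate 1, 1319 higher and 815 lower without NK replicate 2, 962 higher and 639 lower without NK replicate 3, 860 higher and 582 lower without NKT replicate 2, and 1082 to 1193 higher with 754 to 778 lower without NKT replicate 1 or 3.

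Weak and strong peaks went in opposite directions. When peaks were put in 10 equal classes by their mean log2 CPM over the 6 libraries, the median log2 fold change of NK over NKT was 1.26 and 1.30 in the weakest classes and -0.84 and -0.58 in the strongest. The strongest class had 38 peaks higher in NK and 1526 lower, whereas the weakest had 505 higher and 117 lower. At the peaks higher in NK the median level was 10.7 CPM in NK, against 0.892 CPM in NKT, and T libraries had a median of 2.82 CPM. At the peaks lower in NK the median level was 11.5 CPM in NK, against 43.6 CPM in NKT, and T libraries had a median of 25.2 CPM. All NK libraries had 0 counts at 318 of the peaks lower in NK, and all NKT libraries had 0 counts at 48 of the peaks higher in NK. Library depth and agreement moved with the groups, and their part in this relation with level was not tested.

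**Figure D1:**
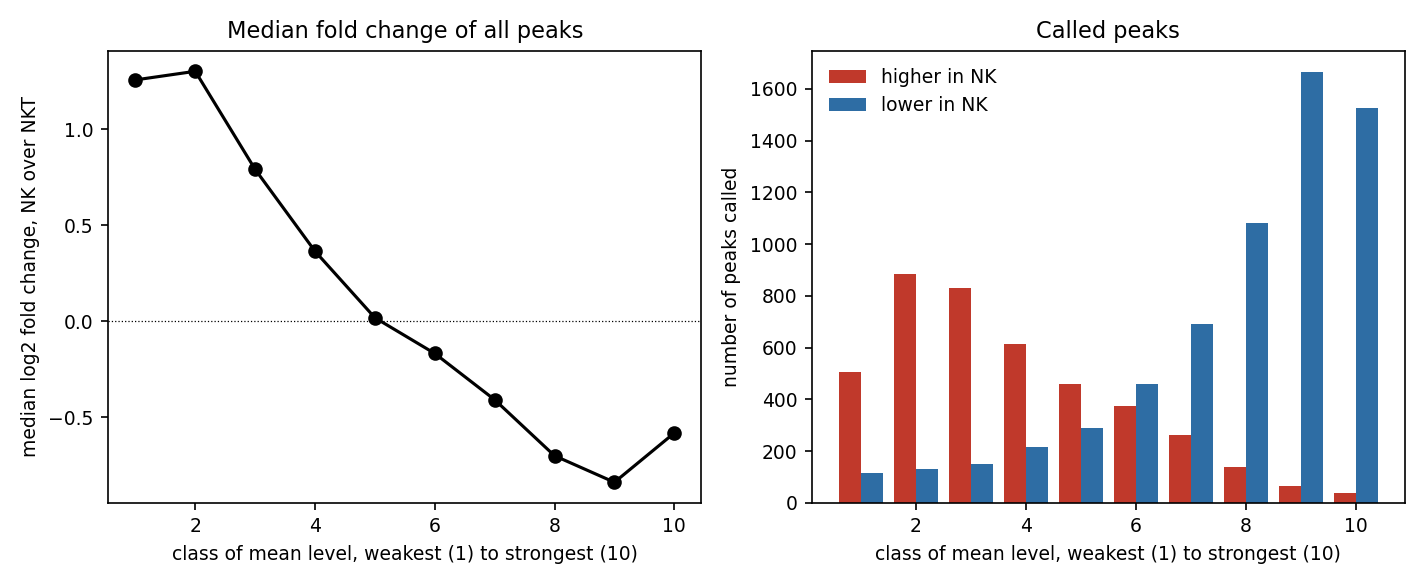
Left, the median log2 fold change of NK over NKT for all peaks in each of 10 classes of mean log2 CPM over the 6 libraries; right, the number of peaks called higher (red) or lower (blue) in NK per class. The median goes below 0 from the sixth class on, and calls lower in NK come mostly from the strong classes.

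Ncr1, Klrb1c and the gate genes Cd27 and Itgam went the way of the NK label, but Itgam did not pass the test. Ncr1, which encodes the NK receptor NKp46, had 12.3, 38.8 and 33.2 CPM in NK libraries, against 0, 0.581 and 0.933 CPM in NKT libraries. Its gene sum, a single promoter peak at chr7:4337492-4337992, was higher in NK by a log2 fold change of 5.32 ± 0.88 (SE; edgeR adjusted p = 0.000231). All NK libraries lay above all NKT libraries, and T libraries had 0 to 5.26 CPM. Klrb1c, which encodes NK1.1, had 24.6, 17.2 and 22.1 CPM in NK libraries, against 3.3, 8.48 and 4.46 CPM in NKT libraries, a log2 fold change of 1.91 ± 0.52 (SE; edgeR adjusted p = 0.0141). The groups did not overlap, but its call was lost without NKT replicate 1 (adjusted p = 0.051) or NKT replicate 3 (adjusted p = 0.061). Cd27, which the NK gate selected against, had 4.1, 4.31 and 9.49 CPM in NK libraries and 43.5, 37.2 and 30.6 CPM in NKT libraries, a log2 fold change of -2.56 ± 0.72 (SE; edgeR adjusted p = 0.0182). Its call was lost without NK replicate 1 (adjusted p = 0.052) or NK replicate 2 (adjusted p = 0.068). Itgam, which encodes the CD11b of the NK gate, had 24.6, 12.9 and 7.91 CPM in NK libraries and 1.32, 7.67 and 5.49 CPM in NKT libraries. Those ranges did not overlap, yet the log2 fold change of 1.50 ± 0.67 (SE) did not pass the test (edgeR adjusted p = 0.13).

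Cd4 showed the widest difference of any identity gene. Its intronic peak at chr6:124884987-124885487 had 12.4, 0 and 3.17 CPM in NK libraries, against 308, 290 and 273 CPM in NKT libraries. The peak was lower in NK by -5.82 ± 0.63 on the log2 scale (SE; edgeR adjusted p = 1.55e-06). The call held with each of the 6 libraries left out in turn. T libraries had a Cd4 gene sum of 23.5 to 32.5 CPM, against 207 to 254 CPM in NKT libraries, so the level in NKT stood apart from that in T as well. The NKT label is that of the CD1d tetramer gate, which does not select on CD4.

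**Figure D2:**
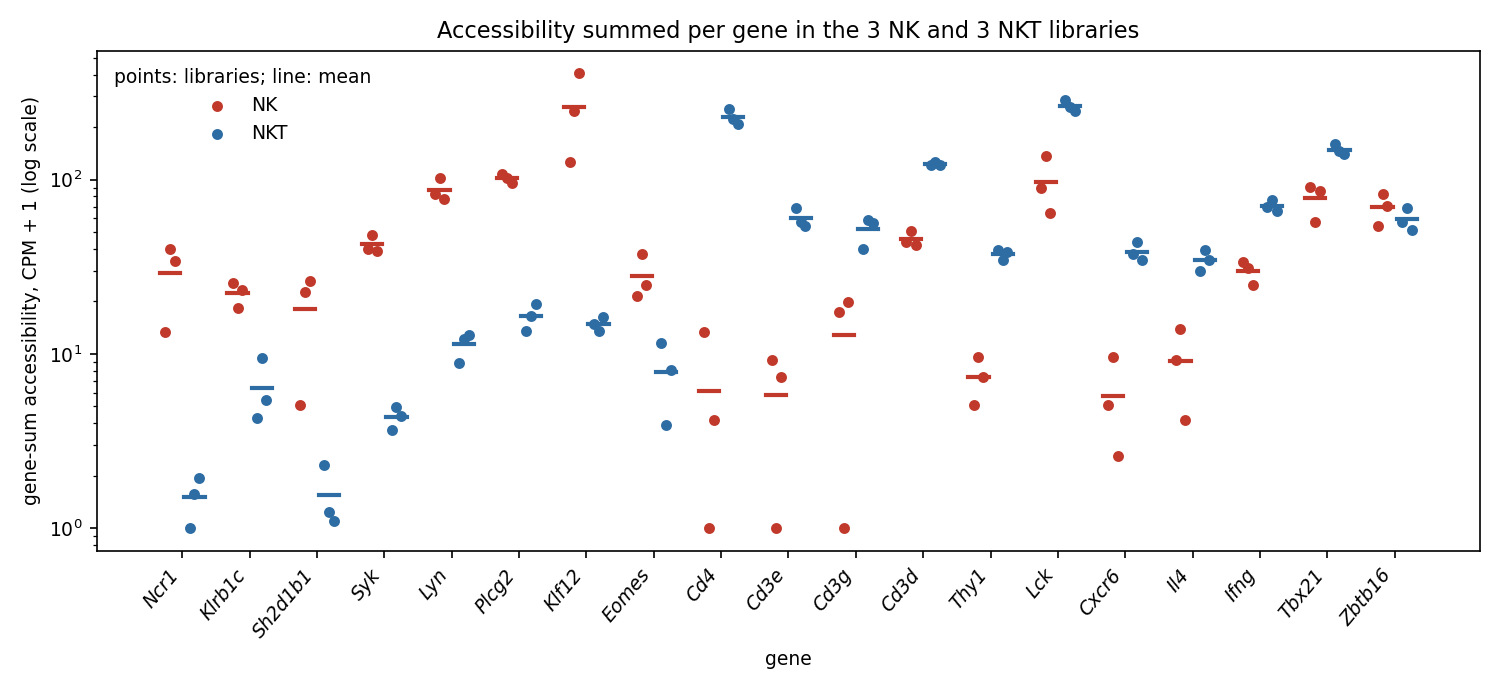
Gene-sum accessibility (CPM + 1, log axis) of 19 named genes in the 3 NK libraries (red) and the 3 NKT libraries (blue), with lines at the group means. Ncr1 to Eomes sit higher in NK, Cd4 to Tbx21 sit lower in NK, and the groups overlap at Zbtb16.

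Of the called genes of the T-cell receptor complex, more were lower than higher in NK. Of 17 measured genes for the complex, coreceptors and costimulation, 8 were lower, 3 were higher and 6 did not pass the test (64.7% called, against 14.8% of all genes), with a median log2 fold change of -1.19 against -0.04 over all genes. Cd3e, a signalling chain of CD3, had 8.2, 0 and 6.32 CPM in NK libraries and 68, 56.2 and 52.9 CPM in NKT libraries, a log2 fold change of -3.54 ± 0.52 (SE; edgeR adjusted p = 7.83e-05). Cd3g had 16.4, 0 and 19 CPM in NK libraries, against 38.9, 58 and 55.7 CPM in NKT libraries, and was lower by -2.05 ± 0.54 (SE; edgeR adjusted p = 0.0121), a call lost without NK replicate 2 (adjusted p = 0.056). Cd3d had 43.1, 49.6 and 41.1 CPM in NK libraries and 120, 125 and 121 CPM in NKT libraries, lower by -1.46 ± 0.28 (SE; edgeR adjusted p = 0.00121). No NK library reached the lowest NKT library at any of these genes. Cd3d and Cd3g share 2 peaks, so their sums are not independent.

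Several neighbouring peaks around the Cd3 cluster were lower in NK. Between chr9:44920610-45010825, from Atp5l to Cd3e, 9 of 11 neighbouring peaks were lower and none was higher, against 10.3% of all peaks lower. The ends of that interval were set after the calls were seen, where lower calls most outnumbered the other peaks. Its share is therefore a description, not a test. The promoter peak of Cd3e whose sequence is printed above, chr9:45009260-45009760, had 8.29, 0 and 3.17 CPM in NK libraries and 52, 53.8 and 47.1 CPM in NKT libraries. Thy1, a surface glycoprotein of T cells, had 4.1, 8.62 and 6.32 CPM in NK libraries and 38.3, 33.6 and 37.6 CPM in NKT libraries, lower by -2.52 ± 0.51 (SE; edgeR adjusted p = 0.00173), and all 3 of its peaks were lower. Trbc1, a constant segment of the receptor's beta chain, was lower by -2.20, Cd6 by -1.62 and Icos by -1.52 on the log2 scale. The 1 peak of Trbc1 also counts toward its neighbour Trbc2. The Trbc2 sum over 3 peaks did not pass (log2 fold change -0.94 ± 0.44, SE, edgeR adjusted p = 0.14). Trac, the constant segment of the alpha chain, had 148, 256 and 187 CPM in NK libraries and 305, 292 and 266 CPM in NKT libraries, and its log2 fold change of -0.55 ± 0.24 (SE) did not pass (edgeR adjusted p = 0.12).

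The 3 members that were higher in NK were the coreceptor genes Cd8a and Cd8b1 and the adaptor gene Cd247. Cd8a had 8.2, 12.9 and 12.6 CPM in NK libraries, against 3.96, 1.74 and 0.933 CPM in NKT libraries, a log2 fold change of 2.61 ± 0.68 (SE; edgeR adjusted p = 0.0114). Cd8b1 had 16.4, 17.2 and 0 CPM in NK libraries and 0, 0.697 and 1.97 CPM in NKT libraries, so these ranges overlapped. T libraries had 10.8 to 16.5 CPM at Cd8a. Cd8a lost its call without NK replicate 3 (adjusted p = 0.05), NKT replicate 2 (adjusted p = 0.051) or NKT replicate 3 (adjusted p = 0.064), and Cd8b1 lost it without NK replicate 1, NK replicate 2, NKT replicate 1 or NKT replicate 2 (adjusted p 0.057 to 0.11). Cd247, the zeta chain that NK receptors use as well as CD3, was higher by 0.86. The 3 higher calls of this list were 2 without NK replicate 1 or NKT replicate 3, 1 without NK replicate 2, NK replicate 3 or NKT replicate 1, and 0 without NKT replicate 2. In a bulk library, a few cells with much open chromatin and many cells with little cannot be told apart.

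Proximal signalling from the T-cell receptor was lower in NK wherever it passed the test. Of 19 measured genes, 8 were lower, 0 were higher and 11 did not pass (42.1% called, against 14.8% of all genes), with a median of -0.72. Lck, the kinase that starts the cascade, had 88.2, 136 and 63.2 CPM in NK libraries and 284, 260 and 246 CPM in NKT libraries, lower by -1.47 ± 0.30 (SE; edgeR adjusted p = 0.00151), and 7 of its 11 peaks were lower with none higher. Zap70, the kinase recruited to CD3, had 59.5, 17.2 and 64.8 CPM in NK libraries, against 144, 143 and 132 CPM in NKT libraries, lower by -1.53 ± 0.30 (SE; edgeR adjusted p = 0.00114). Lat, the scaffold phosphorylated by ZAP70, had 4.1, 17.2 and 9.49 CPM in NK libraries and 43.5, 35.6 and 37.2 CPM in NKT libraries, lower by -1.92 ± 0.42 (SE; edgeR adjusted p = 0.00324). None of these genes overlapped between the groups, which was so for 34.9% of all genes. Lcp2, Ptpn22, Rasgrp1 and Nfatc1 were lower by -1.17, -1.15, -0.74 and -0.70 on the log2 scale. Trat1 and Cblb, with log2 fold changes of -0.01 and 0.09, overlapped between the groups. The 8 lower calls were 5 without any 1 of the NKT libraries.

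Signalling genes of NK receptors moved the other way. Of 17 measured genes, 7 were higher in NK (Tyrobp, Fcer1g, Syk, Plcg2, Lyn, Sh2d1b1 and Lat2), 0 were lower and 10 did not pass (41.2% called, against 14.8% of all genes), with a median log2 fold change of 0.55. Syk, the kinase that binds ITAM adaptors, had 39, 47.4 and 37.9 CPM in NK libraries and 2.64, 3.95 and 3.42 CPM in NKT libraries, higher by 3.57 ± 0.55 (SE; edgeR adjusted p = 0.000115). Plcg2, the phospholipase downstream of NK receptors, had 107, 101 and 94.9 CPM in NK libraries, against 12.5, 15.5 and 18.2 CPM in NKT libraries, higher by 2.67 ± 0.30 (SE; edgeR adjusted p = 4.2e-06), with 4 of its 8 peaks higher and none lower. Lyn, a Src-family kinase, had 82, 101 and 75.9 CPM in NK libraries and 7.92, 11.2 and 11.9 CPM in NKT libraries, higher by 3.01 ± 0.37 (SE; edgeR adjusted p = 8.32e-06). The lowest NK library was several times the highest NKT library at all of these genes. The list had 7 or 8 higher calls with any 1 library left out. Without NK replicate 1, 2 members were also lower.

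The remaining members of that list included adaptors. Sh2d1b1, which encodes the SLAM-receptor adaptor EAT-2, had 4.1, 21.5 and 25.3 CPM in NK libraries, against 1.32, 0.232 and 0.104 CPM in NKT libraries. That difference of 5.64 ± 0.96 (SE; edgeR adjusted p = 0.000341) sits in 1 promoter peak, whose sequence is printed above. Lat2, a LAT-like adaptor of myeloid, B and NK cells, had 86.1, 64.6 and 85.4 CPM in NK libraries and 2.64, 10.3 and 14.4 CPM in NKT libraries, higher by 2.94 ± 0.46 (SE; edgeR adjusted p = 0.000121), with 4 of 6 peaks higher. Fcer1g, the Fc receptor gamma chain, was higher by 2.18 and Tyrobp, which encodes DAP12, by 1.90. Ptpn6, Sh3bp2 and Vav1 overlapped between the groups, at log2 fold changes of 0.02, -0.23 and -0.27. Syk summed over its peaks outside promoters gave -1.38 (edgeR adjusted p = 0.378), so that the rise was not seen there.

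NK receptor genes were split. Of 23 measured genes, 6 were higher in NK (Ncr1, Klrb1b, Klrb1c, Cd244a, Klrd1 and Klre1), 1 was lower (Slamf7) and 16 did not pass (30.4% called, against 14.8% of all genes), with a median of 0.20. Cd244a, the receptor 2B4, had 49.2, 56 and 99.6 CPM in NK libraries and 21.8, 26.4 and 29.5 CPM in NKT libraries, higher by 1.40 ± 0.31 (SE; edgeR adjusted p = 0.00419), a call lost without NK replicate 3 (adjusted p = 0.074). Klrd1, which encodes the CD94 partner of NKG2 receptors, and Klre1 were higher by 1.11 and 1.06. These genes share a peak, so their sums are not independent, and none of the 6 peaks of Klrd1 was called. Slamf7, a SLAM receptor, had 80, 84 and 88.5 CPM in NK libraries, against 189, 219 and 207 CPM in NKT libraries, lower by -1.28 ± 0.24 (SE; edgeR adjusted p = 0.00101), with 5 of its 8 peaks lower. These groups did not overlap. Tigit, Crtam and Klra6 overlapped between the groups, at log2 fold changes of 0.00, 0.04 and -0.19. The 6 higher calls were 4 without NK replicate 1, NK replicate 2 or NKT replicate 2, 3 without NK replicate 3 or NKT replicate 1, and 2 without NKT replicate 3. Klra and Klrb1 genes are near-identical copies between which reads can be shared, so single members of these families are uncertain.

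Cytotoxic granule genes showed few differences. Of 17 measured genes, 2 were higher in NK, 1 was lower and 14 did not pass, 17.6% called against 14.8% of all genes, with a median of -0.03. Gzma, which encodes granzyme A, had 22.6, 43.1 and 91.7 CPM in NK libraries and 7.92, 11.7 and 15 CPM in NKT libraries, higher by 2.15 ± 0.44 (SE; edgeR adjusted p = 0.00203). Gzmm, which encodes granzyme M, had 24.6, 64.6 and 17.4 CPM in NK libraries and 7.92, 13.1 and 13.1 CPM in NKT libraries, higher by 1.56 ± 0.44 (SE; edgeR adjusted p = 0.018). Neither gene overlapped between the groups, but Gzma lost its call without NK replicate 3 (adjusted p = 0.075) and Gzmm lost it without NK replicate 2 (adjusted p = 0.27) or NKT replicate 1 (adjusted p = 0.063). Srgn, the granule proteoglycan serglycin, was lower by -0.86, a call held only without NK replicate 1 among the fits with 1 library left out. Nkg7, Unc13d and Stx11 overlapped between the groups, and Nkg7 spread from 45.1 to 205 CPM over the NK libraries, against 114 to 133 CPM over the NKT libraries.

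**Figure D3:**
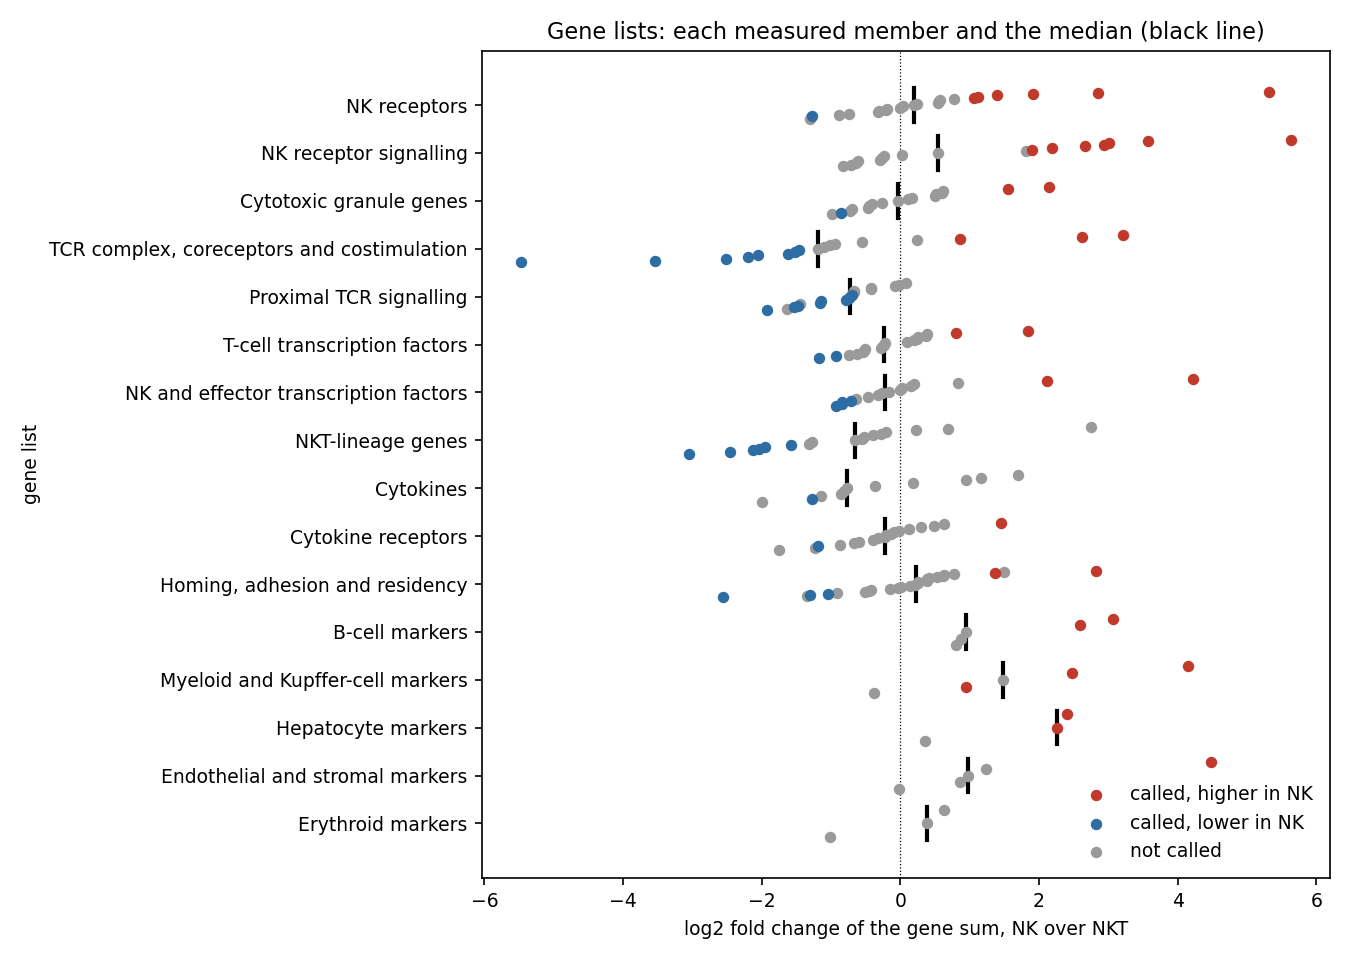
Log2 fold change of the gene sum, NK over NKT, for each measured member of 16 gene lists, coloured red or blue where called higher or lower in NK at an adjusted p below 0.05 and grey otherwise, with a black line at each list's median. The list for the T-cell receptor complex reaches from -5.48 at Cd4 to 3.22 at Cd8b1, and the signalling list of NK receptors has 7 called members, all above 0.

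The T-box factors differed in direction. Eomes, a factor of NK maturation, had 20.5, 36.6 and 23.7 CPM in NK libraries and 10.6, 2.9 and 7.05 CPM in NKT libraries, higher by 2.12 ± 0.51 (SE; edgeR adjusted p = 0.00675). T libraries had 16.3 to 35.4 CPM at Eomes, which overlapped NK. The NK and NKT libraries did not overlap, and none of the 4 Eomes peaks was called on its own. The Eomes call was lost without NKT replicate 2 (adjusted p = 0.05). Tbx21, which encodes T-bet, had 90.2, 56 and 85.4 CPM in NK libraries and 158, 145 and 138 CPM in NKT libraries, lower by -0.92 ± 0.26 (SE; edgeR adjusted p = 0.0167). Of its 14 peaks 5 were lower and none was higher. One of those, the promoter peak chr11:97114929-97115429, had 4.15, 8.43 and 12.7 CPM in NK libraries and 36.8, 22.7 and 20 CPM in NKT libraries (log2 fold change -1.58; edgeR adjusted p = 0.0368), a call that held only without NKT replicate 3 among the fits with 1 library left out. Each of the other 4 lost its call in at least 1 of those fits. The gene call was lost without NK replicate 2 (adjusted p = 0.088) or NKT replicate 1 (adjusted p = 0.052).

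Klf12 had the largest rise among the NK and effector transcription factors. This zinc-finger repressor gene had 125, 248 and 405 CPM in NK libraries, against 13.9, 12.5 and 15.3 CPM in NKT libraries, higher by 4.22 ± 0.89 (SE; edgeR adjusted p = 0.00244), and 4 of its 8 peaks were higher with none lower. T libraries had 40.7 to 68.7 CPM. All NK libraries lay above all NKT and T libraries. Of the 16 measured genes in that list, 2 were higher in NK, 4 were lower (Tbx21, Irf2, Ikzf3 and Stat4) and 10 did not pass (37.5% called, against 14.8% of all genes), with a median of -0.21. Stat4, the signal transducer of the IL-12 receptor, had 172, 166 and 180 CPM in NK libraries and 304, 329 and 300 CPM in NKT libraries, lower by -0.85 ± 0.22 (SE; edgeR adjusted p = 0.0106), with 5 of 14 peaks lower. Ikzf3, which encodes Aiolos, was lower by -0.84, past the threshold only with all libraries in or without NK replicate 1. Runx3, Irf8 and Zeb2 overlapped between the groups, with log2 fold changes of 0.00, 0.03 and 0.16. The 4 lower calls were 1 without NK replicate 2 or NKT replicate 1 and 2 without NKT replicate 2 or NKT replicate 3, and the 2 higher calls were 1 without NKT replicate 2 and 3 without NK replicate 1.

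Among T-cell transcription factors, Bcl11b was lower in NK across its locus. Bcl11b, a zinc-finger factor of T-lineage commitment, had 131, 226 and 194 CPM in NK libraries and 424, 418 and 409 CPM in NKT libraries, lower by -1.18 ± 0.26 (SE; edgeR adjusted p = 0.00344). Of its 35 peaks 12 were lower and none was higher, against 10.3% of all peaks lower. The intronic peak chr12:107921366-107921866 had 0, 4.22 and 9.52 CPM in NK libraries, against 73.5, 85.7 and 73.4 CPM in NKT libraries, and the promoter peak chr12:108003802-108004302 had 16.6, 12.6 and 15.9 CPM in NK libraries, against 66.3, 58.2 and 59.9 CPM in NKT libraries. Both had ranges far apart, with log2 fold changes of -3.96 ± 0.54 and -2.02 ± 0.42 (SE; edgeR adjusted p = 2.2e-05 and 0.00175). The other 10 lower peaks of the locus had 0 to 12.6 CPM in any NK library, and 9 of the 12 lost their call when some single library was left out.

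Of the 19 measured T-cell transcription factors, 2 were lower in NK (Bcl11b and Tcf12), 2 were higher (Sox4 and Tox) and 15 did not pass (21.1% called, against 14.8% of all genes), with a median of -0.24. Sox4 had 82, 77.6 and 45.9 CPM in NK libraries and 11.2, 19.9 and 24.2 CPM in NKT libraries, higher by 1.83 ± 0.58 (SE; edgeR adjusted p = 0.0318), and Tox, a factor needed for both NK and T-cell development, had 252, 252 and 411 CPM in NK libraries and 157, 177 and 189 CPM in NKT libraries, higher by 0.81 ± 0.27 (SE; edgeR adjusted p = 0.042). The groups did not overlap at either gene. T libraries had 33.3 to 77.7 CPM at Sox4 and 260 to 370 CPM at Tox, and overlapped NK at both. Sox4 kept its call only without NK replicate 3 among the fits with 1 library left out (adjusted p 0.053 to 0.11 in the others), Tox only without NK replicate 1 or NK replicate 2, and Tcf12 only without NK replicate 1. The list had 0 or 1 higher call in all those fits.

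Tcf7 and Gata3 had called peaks although their gene sums did not pass the test. Tcf7, which encodes TCF-1, had 131, 116 and 134 CPM in NK libraries and 137, 160 and 149 CPM in NKT libraries, a log2 fold change of -0.23 ± 0.31 (SE) that did not pass (edgeR adjusted p = 0.66), with every NK library just below the NKT libraries. Of its 14 peaks, 2 were lower in NK and 2 were higher. The intronic peak chr11:52265488-52265988 had 8.29, 8.43 and 9.52 CPM in NK libraries and 63.1, 68.8 and 57 CPM in NKT libraries. The intronic peak chr11:52261735-52262235, in the same gene, had 12.4, 12.6 and 19 CPM in NK libraries and 3.2, 3.48 and 4.66 CPM in NKT libraries. Neither peak overlapped between the groups. Gata3, a factor of T helper and NKT development, had a log2 fold change of -0.25 ± 0.24 (SE; edgeR adjusted p = 0.51) and overlapping sums, yet 3 of its 9 peaks were lower, among them the intronic peak chr2:9867491-9867991 with 4.15, 8.43 and 7.93 CPM in NK libraries and 42.4, 32.6 and 35.8 CPM in NKT libraries.

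Zbtb16, the lineage factor of NKT cells, did not separate the groups. Its gene sum was 53.3, 81.9 and 69.6 CPM in NK libraries and 56.1, 67.5 and 50.7 CPM in NKT libraries, a log2 fold change of 0.23 ± 0.50 (SE; edgeR adjusted p = 0.79). T libraries had 12 to 20.2 CPM. NK and NKT libraries both lay above all T libraries and overlapped with each other. Of its 3 intronic peaks, 1 at chr9:48814447-48814947 was higher in NK, with 16.6, 44.3 and 22.2 CPM in NK libraries, against 0, 8.18 and 6.03 CPM in NKT libraries (log2 fold change 2.39 ± 0.86, SE; edgeR adjusted p = 0.0499). That call was lost without NK replicate 2 (adjusted p = 0.2) and held without NK replicate 1, and it was lost without NK replicate 3 or any 1 of the NKT libraries (adjusted p 0.077 to 0.12).

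Other genes linked to the NKT lineage were lower in NK wherever they passed. Of 17 measured genes, 6 were lower (Cxcr6, Izumo1r, Il4, Slamf1, Il13 and Rora), 0 were higher and 11 did not pass (35.3% called, against 14.8% of all genes), with a median of -0.65. Il4 had 8.2, 12.9 and 3.16 CPM in NK libraries and 29, 38.2 and 33.4 CPM in NKT libraries, lower by -2.12 ± 0.47 (SE; edgeR adjusted p = 0.00345), and Il13 had 14.4, 30.2 and 33.2 CPM in NK libraries and 106, 103 and 96.4 CPM in NKT libraries, lower by -1.95 ± 0.34 (SE; edgeR adjusted p = 0.000479). These cytokine genes are neighbours. Between chr11:53590325-53663165, from Kif3a to Rad50, 8 of 11 adjoining peaks were lower and none higher in NK. The ends of that interval were set from the calls, in the same way as those around the Cd3 cluster. Slamf1, a receptor needed for NKT development, had 32.8, 17.2 and 19 CPM in NK libraries and 85.8, 96.3 and 99.2 CPM in NKT libraries, lower by -2.04 ± 0.44 (SE; edgeR adjusted p = 0.00288). None of the 3 genes overlapped between the groups.

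Cxcr6, a chemokine receptor of liver NKT cells, had 4.1, 8.62 and 1.58 CPM in NK libraries and 36.3, 43 and 33.5 CPM in NKT libraries, lower by -3.05 ± 0.97 (SE; edgeR adjusted p = 0.0333). The groups stood far apart, but the call was lost with any 1 library left out (adjusted p 0.053 to 0.16). Izumo1r, the folate receptor family member found on regulatory and NKT cells, was lower by -2.45, a call lost without NK replicate 2, NK replicate 3 or NKT replicate 1 (adjusted p 0.051 to 0.095), and Rora, a nuclear receptor gene, by -1.58. Maf and Egr2 had log2 fold changes of -0.20 and -0.28 and did not pass. The 6 lower calls were 4 without NK replicate 2, NK replicate 3 or NKT replicate 1.

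Ifng, the effector cytokine of both cell types, was open in both and lower in NK. It had 32.8, 30.2 and 23.7 CPM in NK libraries and 68.6, 75.3 and 65.1 CPM in NKT libraries, lower by -1.28 ± 0.34 (SE; edgeR adjusted p = 0.0117), in 1 peak. T libraries had 1.81 to 9.4 CPM, below every NK and NKT library. The call was lost without NK replicate 3 (adjusted p = 0.065) or NKT replicate 2 (adjusted p = 0.051). Of 11 measured cytokine genes it was the 1 called (9.09%, against 14.8% of all genes), with 0 higher and a median of -0.77. With RLE factors, cyclic loess or thinned NKT libraries, 2 genes of that list were higher in NK. Ccl5, Il2 and Ltb, at log2 fold changes of 0.18, -0.36 and -0.77, did not pass.

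Receptors and homing genes were mostly alike in their calls. Of 18 measured cytokine receptors, 1 was higher in NK, 1 was lower and 16 did not pass (11.1% called, against 14.8% of all genes), with a median of -0.22. Tgfbr3, the TGF-beta co-receptor betaglycan, had 71.8, 101 and 120 CPM in NK libraries and 19.1, 41.7 and 42.9 CPM in NKT libraries, higher by 1.45 ± 0.35 (SE; edgeR adjusted p = 0.0063), and Il4ra had 41, 51.7 and 104 CPM in NK libraries, against 120, 164 and 174 CPM in NKT libraries, lower by -1.19 ± 0.26 (SE; edgeR adjusted p = 0.00322). Of 26 measured homing, adhesion and residency genes, 2 were higher (Itga4 and Itgax), 3 were lower (Cd27 and Ccr9 among them) and 21 did not pass (19.2% called, against 14.8% of all genes), with a median of 0.23. Itga4, the alpha chain of VLA-4, had 182, 81.9 and 168 CPM in NK libraries and 18.5, 19.9 and 22.4 CPM in NKT libraries, higher by 2.82 ± 0.48 (SE; edgeR adjusted p = 0.000313), with 3 of 7 peaks higher. All NK libraries lay above all NKT libraries at Tgfbr3 and Itga4. T libraries had 111 to 147 CPM at Tgfbr3 and 86.8 to 103 CPM at Itga4, and overlapped NK at both. Itgax, the integrin chain CD11c, was higher by 1.37, a call lost without NK replicate 2 (adjusted p = 0.078) or NKT replicate 1 (adjusted p = 0.057). Ccr9, a chemokine receptor gene, was lower by -1.30 and lost its call without NK replicate 2, NK replicate 3, NKT replicate 1 or NKT replicate 2. Itga1 and Itga2, whose products tell liver-resident and circulating NK cells apart, had log2 fold changes of 0.01 and 0.14 and overlapped between the groups.

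Markers of other cell types were higher in NK than in NKT libraries where they passed the test. Over the B-cell, myeloid and Kupffer-cell, hepatocyte, endothelial and stromal, and erythroid lists, 2 of 5, 3 of 5, 2 of 3, 1 of 5 and 0 of 3 measured genes were higher, against 8.51% of all genes, and none was lower. Weak peaks as a whole were also higher in NK, with median log2 fold changes of 1.26 and 1.30 in the weakest classes. Whether these markers differ from other sites of their level was not tested. Pax5, the B-cell identity factor, had 77.9, 43.1 and 42.7 CPM in NK libraries and 6.6, 10.5 and 8.81 CPM in NKT libraries, higher by 2.60 ± 0.46 (SE; edgeR adjusted p = 0.000539). Stab2, a scavenger receptor of sinusoidal endothelium, had 39, 30.2 and 141 CPM in NK libraries and 7.26, 1.86 and 2.59 CPM in NKT libraries, higher by 4.49 ± 0.70 (SE; edgeR adjusted p = 0.000133). Csf3r, the G-CSF receptor of neutrophils, had 20.5, 12.9 and 14.2 CPM in NK libraries and 2.64, 0.349 and 0.622 CPM in NKT libraries, higher by 4.15 ± 1.02 (SE; edgeR adjusted p = 0.00793).

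The summed level of the B-cell list was 121 to 180 CPM in NK libraries and 44.2 to 55.5 CPM in NKT libraries, that of the myeloid list 109 to 156 and 55.4 to 62.1 CPM, that of the hepatocyte list 32.8 to 64.8 and 3.96 to 17.4 CPM, that of the endothelial list 136 to 261 and 99 to 116 CPM, and that of the erythroid list 31.6 to 41 and 38.9 to 51.8 CPM, NK libraries first in each pair. The B-cell, myeloid, hepatocyte and endothelial sums of the groups did not overlap, whereas the erythroid sums did. Many defining markers of these lists (Cd79a, Ms4a1, Csf1r, Adgre1, Lyz2, Alb, Ttr and Kdr among them) had no peak with their symbol in the table used. The part of these markers in the results above was not tested. Csf3r and Cd79b lost their calls without NKT replicate 2 (adjusted p = 0.061 and 0.053) and G6pc without NK replicate 3 (adjusted p = 0.23). Fgb, the other called hepatocyte gene, lost its call without NK replicate 2, NKT replicate 1 or NKT replicate 2 (adjusted p 0.072 to 0.12). Clec4f lost it without NK replicate 2 or NK replicate 3 or any 1 of the NKT libraries, and Spi1 without NK replicate 1, NKT replicate 1 or NKT replicate 2.

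The genes with the largest fold changes were then taken among those with a call, ranges that did not overlap and at least 10 counts in each library of the higher group. Ncr1 and Sh2d1b1 missed that minimum through NK replicate 1. The 10 genes highest in NK by this rule were in none of the gene lists. However, 4930517O19Rik shares its highest peak with the listed gene Klf12, so their sums are not independent. Tshz3, a zinc-finger homeobox gene, had 32.8, 47.4 and 72.7 CPM in NK libraries and 0, 0 and 1.04 CPM in NKT libraries, higher by 6.67 ± 1.22 (SE; edgeR adjusted p = 0.000673). Angpt1, which encodes the TIE2 ligand angiopoietin-1, had 61.5, 68.9 and 53.8 CPM in NK libraries and 2.64, 2.09 and 1.14 CPM in NKT libraries, higher by 5.06 ± 0.76 (SE; edgeR adjusted p = 8.36e-05). At both genes the lowest NK library exceeded the highest NKT library many times over. Prex2, a guanine nucleotide exchange factor gene, was higher by 5.75, Plxdc2 by 5.11, Gm29811 by 5.33, 4930517O19Rik by 6.09 and 1700020N01Rik by 5.26 on the log2 scale, with T libraries at 0 to 13 CPM over these genes. Dner, a Notch ligand gene, and Mei4, a meiotic recombination gene, had 15 to 29.6 and 10.9 to 38 CPM in T libraries, close to their levels in NK libraries of 23.7 to 37.9 and 19 to 32.8 CPM, against at most 0.465 and 0.829 CPM in NKT libraries.

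The genes lowest in NK by the same rule, Cd4 among them, had few or no counts in NK libraries. Il9 and Slc25a48 share the same 2 peaks and had 4.1, 0 and 3.16 CPM in NK libraries and 50.1, 43.2 and 39.3 CPM in NKT libraries, lower by -4.11 ± 0.55 (SE; edgeR adjusted p = 2.27e-05). Gm30646, Gm23125, Tgtp1 and Ighv14-4 had 0 counts in all NK libraries. Against a floor of 3 counts over the NK group, they were at least 5.72-fold, 4.7-fold, 3.53-fold and 4.06-fold lower in NK. Olfr9 had 0, 0 and 2 counts in NK libraries and 41.6, 28.2 and 27.3 CPM in NKT libraries, a pooled ratio of 22.8 with NKT on top (95% counting interval 6.28 to 189). Tex50 had 1 count over the NK group and a ratio of 18.6 the same way (3.30 to 737), and Gm47586 had 2 counts and a ratio of 20.9 (5.76 to 173). Tgtp1 lost its call with any 1 library left out, and Gm23125, Ighv14-4 and Gm47586 lost theirs without NK replicate 3.

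The single peaks highest in NK by the same rule lay in introns, in a 3' UTR and between genes. A 3' UTR peak of Nfkb1, which encodes the p50 subunit of NF-kappaB, at chr3:135585291-135585791 had 58.1, 54.8 and 73 CPM in NK libraries, against 0, 0.454 and 0.685 CPM in NKT libraries, higher by 6.79 ± 0.83 (SE; edgeR adjusted p = 5.31e-06). An intronic peak of Lrrc1 at chr9:77528685-77529185 had 20.7, 59 and 41.2 CPM in NK libraries and 0, 0.303 and 0.411 CPM in NKT libraries. An intergenic peak at chr9:92374733-92375233 had 53.9, 114 and 213 CPM in NK libraries and 1.6, 0.606 and 1.51 CPM in NKT libraries. At all 3 peaks the NKT libraries were near 0. Intronic peaks of B230208H11Rik, Zfhx3, Sgk1 and Tshz3 and an intergenic peak at chr3:61670710-61671210 were higher in NK by 6.64, 6.58, 6.41, 6.29 and 6.48 on the log2 scale.

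The strongest peaks in the other direction had no NK count at all. The intronic Wwox peak chr8:115064523-115065023 had 0 counts in each NK library and 58.4, 47.3 and 50.2 CPM in NKT libraries, at least 26.2-fold lower in NK against the floor of 3 counts over the group (edgeR adjusted p = 0.000316). The intronic peak chr15:78614392-78614892 in Cyth4, which encodes an exchange factor for ARF GTPases, had 0 counts in each NK library and 40, 53.6 and 44.9 CPM in NKT libraries, at least 25.6-fold lower. Other peaks of this kind lay in 4933424N20Rik, Zcchc10, Mvb12b and Gm20388 and at chr11:6704655-6705155 between genes, with bounds of 18.4-fold to 25.7-fold. A count of 0 bounds the level in NK and does not show absence of access.

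Many loci held peaks of both directions. Of 1839 genes with at least 2 called peaks, 1320 had all of them in 1 direction, and over all genes 519 had peaks of both. Lrrk1, which encodes a leucine-rich repeat kinase, had 7 peaks higher in NK and 4 lower of 32, and its sum did not pass (log2 fold change 0.16 ± 0.22, SE). Its intronic peak chr7:66233168-66233668 had 24.9, 29.5 and 31.7 CPM in NK libraries and 116, 114 and 98.7 CPM in NKT libraries, whereas the intronic peak chr7:66383934-66384434 had 18.7, 25.3 and 9.52 CPM in NK libraries and 1.6, 1.67 and 1.51 CPM in NKT libraries. Fyn, a Src-family kinase of T and NK cells, had 4 higher and 5 lower of 40. Morrbid, a long non-coding RNA gene, had 5 higher and 7 lower of 42, and Gm37240 4 higher and 4 lower of 29. Gm20388, an annotation that spans many genes, had 25 higher and 19 lower of 235. Over all peaks, 6.81% were higher and 10.3% were lower. These 5 genes were picked by their number of called peaks in both directions, which favours genes with many peaks. Named after their values were seen, Plek had 8 of 9 peaks higher and Cmklr1 9 of 13 higher, with none lower, and Smad3 had 11 lower and none higher.

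The stretch with the most peaks called in 1 direction lay on chromosome 1. It was found after the calls were seen, as the run of neighbouring peaks, with starts at most 100 kb apart, in which calls higher in NK most outnumbered the other peaks. Within chr1:88211950-88310881, a span of 98.9 kb over Ugt1a genes, Mroh2a, Hjurp and Trpm8, 101 of 112 peaks were higher in NK and 0 were lower, with a median log2 fold change of 2.93. The mean level per peak was 20.9, 26.8 and 36.9 CPM in NK libraries and 6.16, 4.61 and 6.91 CPM in NKT libraries, and T and mPTCL libraries had 10.3 to 17.1 and 7.01 to 17.8 CPM. All NK libraries lay above every other library, and all NKT libraries below every other library. In the 500 kb before it 0 of 13 peaks were higher and 3 lower, and in the 500 kb after it 0 of 45 were higher and 6 lower. The number of its peaks higher in NK was 79 to 109 over the alternatives that refit the larger table, apart from 74 at a mean count of at least 20. No cause of the stretch was tested. The next stretches by that score had 9 to 12 called peaks, over Adamts14, over Plek and Cnrip1 and over Cmklr1 higher in NK, and over Nxf1 and Polr2g lower in NK.

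**Figure D4:**
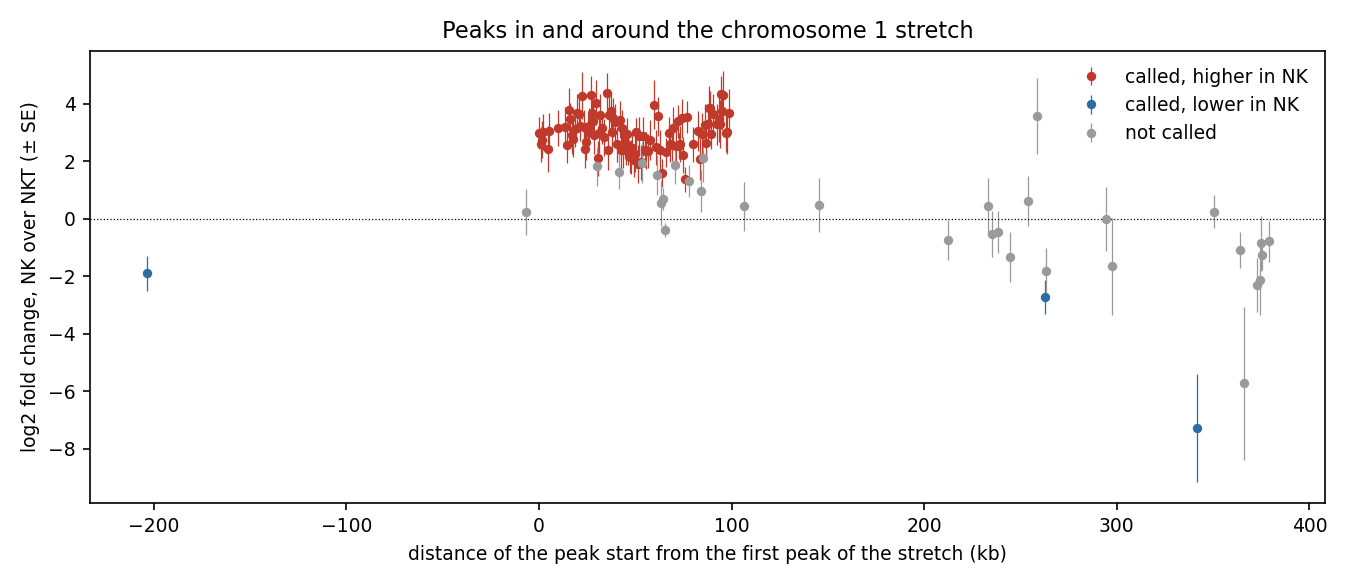
Log2 fold change of NK over NKT (± SE) for each peak in and around the chromosome 1 stretch, by the distance of its start from the first peak of the stretch in kb. The peaks called higher in NK (red) fill the 98.9 kb of the stretch, and none of the neighbouring peaks on either side is red.

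Promoters and distal sites were unevenly represented among the calls. Promoter peaks, by the class the authors deposited, were 16.4% of the peaks higher in NK (exact 95% interval 15.3 to 17.6), 49.1% of those lower in NK (47.8 to 50.3) and 32.6% of all peaks tested. Intergenic peaks were 21.9% of those higher in NK, 11% of those lower and 15.7% of all, and intronic peaks 38.6%, 26.7% and 31.7%.  With NKT libraries thinned to the NK depth, promoter peaks were 21.3% of those higher in NK and 35% of those lower, against 34.4% of all, so the share among lower calls was then close to that of all peaks. In the smaller deposited peak table they were 33.2% and 41.2%, against 48% of all.

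**Figure D5:**
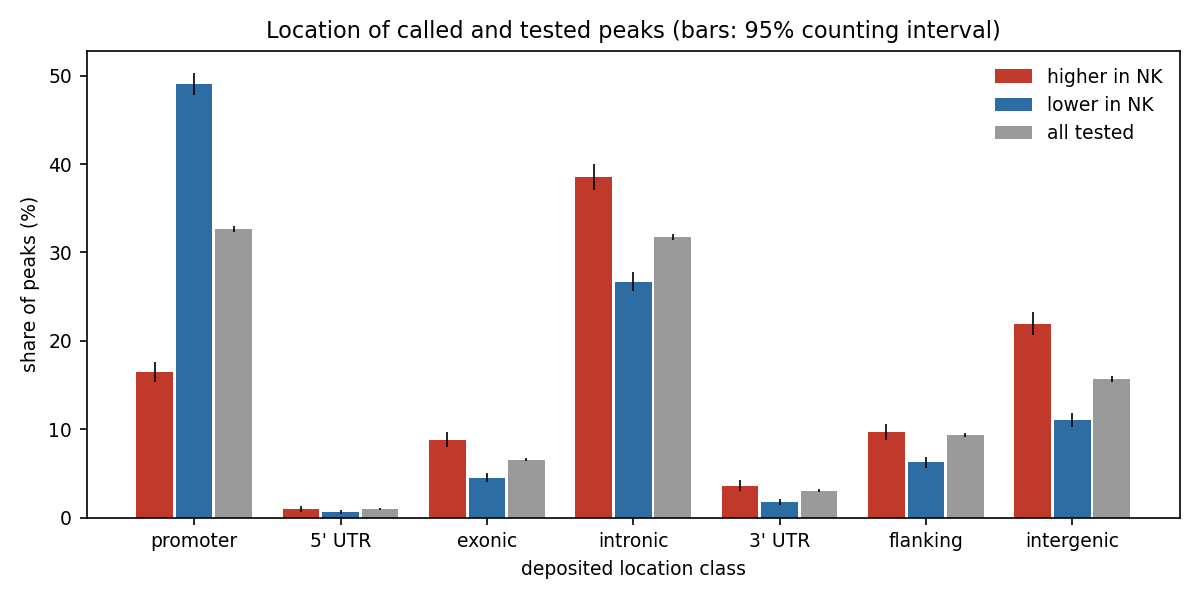
Share of peaks (%) in each deposited location class for peaks called higher in NK (red), called lower in NK (blue) and all tested (grey), with exact 95% counting intervals. Promoter peaks make up 16.4% of the red set, 49.1% of the blue set and 32.6% of the grey set.

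Motif letters under promoter peaks were counted as a description, in RefSeq windows of 300 bases, from 250 before to 50 after a start, that shared at least 150 bases with a promoter peak. The motifs, read on both strands, were T-box (GGTGTGA), ETS (CCGGAAG or ACTTCCT), RUNX (TGTGGTT), TCF7/LEF1 (CTTTGAA or CTTTGAT), E-box (CAGCTG or CAGGTG), AP-1 (TGANTCA), ROR (TAGGTCA), EGR (GTGGGCG), NF-kappaB (GGGANTTCC), the motif of GATA factors (AGATAA) and that of CTCF (AGGGGGC). Of 32851 windows, 10566 matched a tested peak, 217 of them a peak higher in NK and 2206 a peak lower in NK. T-box letters were in 7.37% of windows higher in NK (exact 95% interval 4.27 to 11.7), 3.54% of those lower (2.80 to 4.39) and 3.31% of all. RUNX letters, such as those in the Ncr1 promoter, were in 6.91% of windows higher in NK (3.92 to 11.1), 3.76% of those lower (3.01 to 4.64) and 3.58% of all. The ETS letters CCGGAAG ran the other way, in 9.22% of windows higher in NK (5.72 to 13.9), 22% of those lower (20.3 to 23.8) and 20.5% of all, and ACTTCCT in 5.07%, 9.66% and 8.92%.

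NF-kappaB letters were in 0.461% of windows higher in NK (exact 95% interval 0.0117 to 2.54), 2.63% of those lower and 2.61% of all, from 1 window higher in NK. CAGCTG was in 19.4%, 13% and 14.2% of the windows higher in NK, lower in NK and tested, CAGGTG in 19.4%, 17.7% and 17.5%, TCF7/LEF1 letters in 7.37%, 5.03% and 5.17%, AP-1 letters in 5.53%, 3.45% and 4.35% and ROR letters in 2.76%, 1.63% and 1.68%. EGR letters were in 14.7%, 16.4% and 16.1%, GATA letters in 3.23%, 4.71% and 4.97%, and CTCF letters in 13.4%, 14.3% and 17.8% of the same sets. The median GC content was 62.3% in windows higher in NK and 61.3% in those lower, with median CpG counts of 18 and 23. Windows at alternative starts of 1 gene overlap, the motifs were chosen for lymphocyte factors, and a match shows letters, not binding.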

How the data were processed

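ATAC-seq read counts per peak were analysed in 6 libraries of 18. The authors deposited whole-number counts, not normalized, for 61224 peaks of 500 bases with location classes and gene symbols, and log2 CPM values, which TMM scaling recomputed from the counts matched to within 0.0005. MACS2 2.1.2, bedtools, edgeR 3.24.3 and the mm10 build are named per the submitters' processing notes; the aligner, duplicate filter, Tn5 shift and how read pairs were counted are not given in the sources used. Peak positions are printed unchanged; no source says if the start is 0-based or 1-based. The tables hold autosomes.

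The test was edgeR 4.0.16 under R 4.3.3, with limma 3.58.1 and DESeq2 1.42.0 for alternatives: TMM, filterByExpr, and 1 quasi-likelihood fit over 18 libraries and 4 groups with 14 residual degrees of freedom, contrast NK minus NKT, and Benjamini-Hochberg adjustment over all 61220 peaks or 20326 gene sums. A gene sum adds the counts of all peaks that carry the symbol. Standard errors were computed from the fold change and its F statistic. A peak or gene was called at an adjusted p below 0.05. Group floors were 3 counts over the group, and intervals are exact at 95% confidence. Replicate numbers were the labels' own. Whether they pair the libraries is not known. Deviations of same-numbered libraries correlated at 0.0078, -0.088 and 0.105, against -0.092 to 0.077 for the other pairs. With 3 libraries per group these values cannot decide it.

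Members, gene lists and tests were chosen with earlier results of these data known. Named genes were the markers of identity, up to 5 called and 3 uncalled genes of each list, 10 genes and 8 peaks in each direction by fold change, and 5 genes with peaks in both directions. Promoter sequences came from RefSeq GRCm38.p6. Scripts were tested on simulated counts. Tables were handled in Python with pandas and scipy. Alternatives covered scaling, filter, test, depth, libraries and the smaller peak set. Results for a few genes that the rule names are not reported here.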

Additional observations from a re-analysis of the deposited data

How the results depend on the processing

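The count of called peaks, 10496, was 6399 with cyclic loess, 2906 at a mean count of at least 20, 3775 with the 6 libraries alone, 3001 with voom and quality weights by group, 2924 with NKT libraries thinned to the NK depth, 2421 beyond an absolute log2 change of 1, 2394 in the smaller table and 5380 with counts halved and rounded up. It was 4622 to 9560 with 1 library left out. The count of called genes, 3006, was 2004 with voom, 1591 after thinning, 501 beyond a log2 change of 1, 1338 in the smaller table and 1330 over promoter peaks only, and 1442 to 3699 with 1 library left out. With the replicate number as a block, 1846 peaks and 1934 genes were called in a fit of the 6 libraries. Whether the numbers pair the libraries is not known, so that fit says nothing of a weaker effect. DESeq2 called 13218 peaks, 10460 of them higher in NK.

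Promoter peaks among those higher in NK were 16.4% as reported, 33.2% in the smaller table and 21.3% after thinning. Among those lower in NK they were 49.1% as reported, 43.9% at an adjusted p below 0.01, 41.2% in the smaller table and 35% after thinning. Of the genes named, the 1 sign change that touched a call was Syk over peaks outside promoters, -1.38. Over named genes and peaks, leaving out 1 library cost 32 of 74 gene calls in at least 1 such fit. Among the lists, proximal TCR signalling had 4 lower calls and NK and effector transcription factors 0 lower calls after thinning. In the central 200 bases of the promoter windows, T-box letters were in 5.53% of windows higher in NK and 2.36% of those lower, and CCGGAAG in 6.45% and 15.3%; this alternative and the halved counts were added after seeing the data. Motif shares over whole peaks and outside promoters were not run, since no genome was used. Shallow NK libraries limit what can be seen of weak peaks there.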
